A study of Homo sapiens with 6 samples.

Results

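The genes described here make or sense leukotrienes and prostaglandins, lipid mediators that cells form from arachidonic acid. They were the 10 genes ALOX5, ALOX5AP, LTA4H, CYP4F3, LTB4R, LTB4R2, PTGS1, PTGES, PTGER2 and PTGER4, taken by name from 2 deposited RNA-seq count tables that together list 13289 genes. All 10 were found. ALOX5, ALOX5AP, LTA4H, LTB4R, LTB4R2, PTGS1, PTGER2 and PTGER4 were in both tables, and CYP4F3 and PTGES were in the ATRA table only.

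RNA came from NB4, a human acute promyelocytic leukemia line that carries the PML-RARA fusion and differentiates along the granulocyte line when given all-trans retinoic acid (ATRA). In ATRA at 1 µM there were 2 knockdown libraries, 1 for each short hairpin against SMARCD2 (hairpin 2 is shRNA2 and hairpin 1 is shRNA1), and 1 library with a control construct. In the vehicle DMSO there were likewise 2 knockdown libraries and 1 control library, which makes 6 libraries in all. SMARCD2 belongs to BAF (SWI/SNF), a complex that moves and opens nucleosomes. All groups thus share the NB4 background, and each library carried either a SMARCD2 hairpin or the control construct. How long the cells were treated is not stated in the labels. Nothing in the labels says that libraries of a treatment came from separate cultures beyond their construct. Each construct had 1 labelled library within a treatment. The p-values therefore rest on how far these few libraries differ, which may be technical in part.

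As background, the 5-lipoxygenase route begins when 5-lipoxygenase, helped by its activating protein in the nuclear membrane, turns arachidonic acid into leukotriene A4. Leukotriene A4 hydrolase makes the neutrophil attractant leukotriene B4 from it. In the cyclooxygenase route, prostaglandin H2 is formed first and terminal synthases turn it into prostaglandin E2, thromboxane and other prostanoids. Mature neutrophils are known for a strong 5-lipoxygenase route, and prostaglandin E2 acting through receptors that raise cyclic AMP is known to restrain their activation.

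Libraries held between 29291209 and 58099733 counts, each summed over 2 columns taken as sequencing runs. The column names do not call them runs. Between the 2 columns of a library, the chi-square per degree of freedom lay between 4.85 and 6.65, more than counting noise alone gives. SMARCD2 stood at 35.6 CPM (counts relative to the scaled library size) with hairpin 2 and 64.2 CPM with hairpin 1 in ATRA, against 122 CPM with the control construct. In DMSO it stood at 25.7 CPM with hairpin 2 and 39.0 CPM with hairpin 1, against 95.5 CPM with the control construct. Of 7 promyelocyte markers fixed as a list, 6 were listed in ATRA and 7 in DMSO. Their levels summed to between 6398 and 6875 CPM in the knockdown libraries and to 5320 CPM in the control in ATRA, and to between 10510 and 10550 CPM in the knockdown libraries and 10320 CPM in the control in DMSO, most of it MPO. ELANE, one of these markers, was listed in DMSO only, at up to 0.615 CPM. Eosinophil, basophil and mast cell markers were also listed, 7 of 8 in ATRA, where they summed to between 724 and 1137 CPM with the hairpins and 714 CPM in the control. In DMSO 6 of these 8 were listed, at between 1750 and 2444 CPM with the hairpins and 1586 CPM in the control, most of it PRG2. Of 6 monocyte and macrophage markers, 4 were listed in ATRA, at between 188 and 200 CPM with the hairpins and 203 CPM in the control. In DMSO 2 were listed, at between 334 and 366 CPM with the hairpins and 355 CPM in the control, most of it CSF1R. As eosinophils, basophils and mast cells also use 5-lipoxygenase, the levels stand beside the results below. Whether cells of these kinds were present, and their part in the results, was not tested. In bulk RNA, fewer cells that express a gene and less RNA per cell cannot be told apart.

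The comparison of ATRA with DMSO asked how the pathway stood in cells given the differentiation stimulus. Of the 8 members in both tables, 7 were higher in ATRA over the 3 constructs and none was lower (edgeR quasi-likelihood test, adjusted p under 0.05), and 5 of the 7 were at least 2-fold higher. Among all 12301 genes tested, 36.2% were called higher and 37.8% lower, and 11.9% were called higher by at least 2-fold. With library totals in place of TMM scaling, all values of this comparison shift by -0.13 on the log2 scale and the calls over all genes split into 3637 higher and 5722 lower, instead of 4450 and 4650. The 7 members called higher were still called under that scaling. The median log2 fold change of the 8 members was 1.59, beside -0.013 over all genes. The members were chosen with earlier results of these data known, so these shares and medians are a description only.

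**Figure D1:**
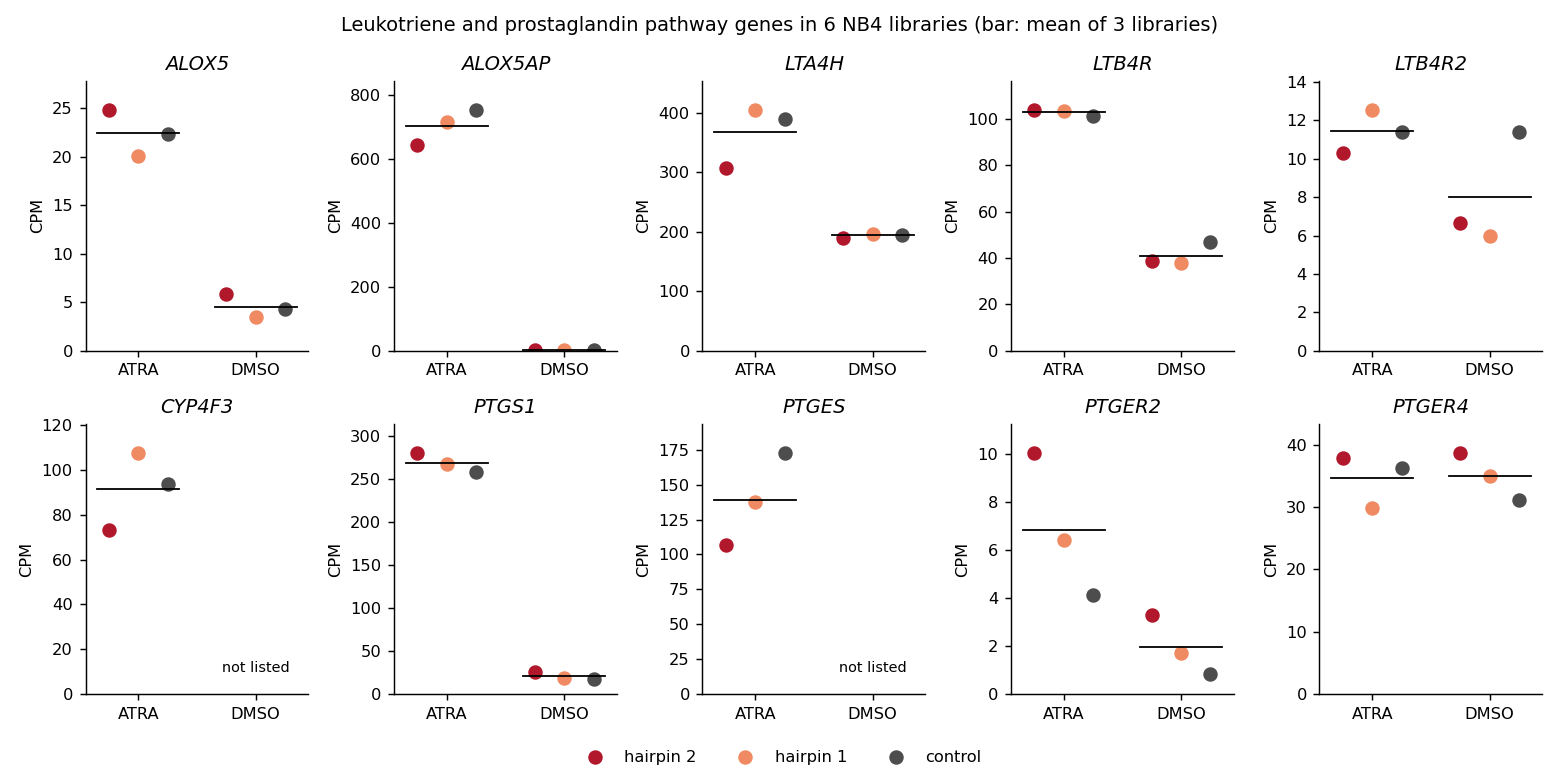
Level of each of the 10 genes in CPM (linear axis from 0, one scale per gene) in the ATRA libraries (left of each panel) and the DMSO libraries (right), with 1 point per library and a bar at the mean of 3 libraries. ALOX5, ALOX5AP, LTA4H, LTB4R, PTGS1 and PTGER2 show no overlap of ATRA with DMSO, LTB4R2 and PTGER4 do overlap, and CYP4F3 and PTGES are listed in ATRA only.

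ALOX5AP, which codes for the 5-lipoxygenase activating protein that hands arachidonic acid to the enzyme, moved most. It stood at 644 CPM with hairpin 2, 715 CPM with hairpin 1 and 754 CPM with the control construct in ATRA. In DMSO it stood at 2.46 CPM with hairpin 2, 2.04 CPM with hairpin 1 and 1.82 CPM with the control construct, which is 108, 123 and 56 counts. Every ATRA library lay far above every DMSO library. The ratio of ATRA to DMSO was 262-fold with hairpin 2, 351-fold with hairpin 1 and 415-fold in the control. The log2 fold change was 8.36 ± 0.11 (SE, 3 libraries against 3; adjusted p = 4e-10), which placed ALOX5AP 11th by size among the 12301 genes. Its promoter is shown because the gene moved most. The window runs from 250 bases before to 50 bases after the RefSeq start (RefSeq, GRCh38.p14, chr13:30713235-30713534, plus strand), and capitals mark every match on either strand to AGGTCA or GGGTCA, single binding elements of nuclear receptors such as the retinoic acid receptors, to GAGGAA, a core of ETS factors such as PU.1, to TTGCNNAA, a C/EBP core, or to GGGCGG, the GC box.
ALOX5AP promoter: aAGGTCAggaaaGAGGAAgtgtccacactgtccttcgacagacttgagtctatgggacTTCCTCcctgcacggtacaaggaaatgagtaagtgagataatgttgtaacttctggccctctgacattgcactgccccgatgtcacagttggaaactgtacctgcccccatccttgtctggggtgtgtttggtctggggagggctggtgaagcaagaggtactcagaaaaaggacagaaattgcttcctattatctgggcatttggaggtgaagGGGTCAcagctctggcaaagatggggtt
The first capitals are AGGTCA with its first base at -249 from the start. GAGGAA follows at -238 and, on the minus strand, at -192, and GGGTCA lies at 23 bases after the start. Over 35116 RefSeq promoter windows of the same length, AGGTCA was found in 13.8%, GGGTCA in 14.1%, GAGGAA in 27.9%, TTGCNNAA in 10.5% and GGGCGG in 45%. Such short matches are frequent, and a match is a description of the letters only.

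ALOX5, the 5-lipoxygenase itself, stood at 24.8 CPM with hairpin 2, 20.1 CPM with hairpin 1 and 22.3 CPM in the control in ATRA. In DMSO it stood at 5.88 CPM with hairpin 2, 3.52 CPM with hairpin 1 and 4.28 CPM in the control. The groups did not overlap, and ALOX5 rose by 2.31 ± 0.18 on the log2 scale (SE; adjusted p = 5.5e-06). LTA4H, the hydrolase that makes leukotriene B4, was already abundant without ATRA. It stood at 307 CPM with hairpin 2, 405 CPM with hairpin 1 and 390 CPM in the control in ATRA, against 190 CPM with hairpin 2, 197 CPM with hairpin 1 and 195 CPM in the control in DMSO. Its log2 fold change was 0.92 ± 0.09 (adjusted p = 2.9e-05). The 3 genes that lead to leukotriene B4 were thus all higher in ATRA, by very different amounts.

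CYP4F3 codes for the cytochrome P450 that inactivates leukotriene B4 in neutrophils by omega-hydroxylation. It stood at 73.0 CPM with hairpin 2, 108 CPM with hairpin 1 and 93.9 CPM in the control in ATRA, from 3118, 5238 and 2650 counts. The DMSO table does not list it, so no fold can be given. The lowest count of any gene listed in that table, summed over its 3 libraries, was 22. Reads of CYP4F3 can be shared with other CYP4F genes of similar sequence, of which CYP4F2 stood between 0.468 and 0.575 CPM and CYP4F12 between 19.9 and 27.1 CPM in ATRA, both also listed in ATRA only.

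The leukotriene B4 receptors lie next to each other on chromosome 14, and they did not show the same pattern. LTB4R codes for the high-affinity receptor BLT1 of leukocytes. It stood at 104 CPM with hairpin 2, 104 CPM with hairpin 1 and 101 CPM in the control in ATRA, against 38.5 CPM with hairpin 2, 37.7 CPM with hairpin 1 and 46.9 CPM in the control in DMSO. It rose by 1.34 ± 0.07 on the log2 scale (SE; adjusted p = 5e-07), with no overlap between the treatments.
LTB4R2 codes for the low-affinity receptor BLT2. It stood at 10.3 CPM with hairpin 2, 12.5 CPM with hairpin 1 and 11.4 CPM in the control in ATRA. In DMSO it stood at 6.66 CPM with hairpin 2 and 5.99 CPM with hairpin 1, but at 11.4 CPM in the control. The control library in DMSO therefore reached into the range of the ATRA libraries. Over the 3 constructs LTB4R2 was called higher in ATRA by 0.58 ± 0.18 (adjusted p = 0.017), and that call was lost without hairpin 1 in DMSO (0.45, adjusted p = 0.072), without hairpin 2 in DMSO (0.54, adjusted p = 0.059) and without hairpin 1 in ATRA (0.41, adjusted p = 0.073). LTB4R2 was 9.02% of the summed level of both receptors with hairpin 2, 10.8% with hairpin 1 and 10.1% in the control in ATRA. In DMSO it was 14.7% with hairpin 2, 13.7% with hairpin 1 and 19.5% in the control.

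The promoters of this pair are shown because the genes are neighbours that did not show the same pattern. Whether their responses differ from each other was not tested. The windows are from RefSeq (GRCh38.p14, plus strand, chr14:24309890-24310189 for LTB4R2 and chr14:24312857-24313156 for LTB4R). Their starts are 2967 bases apart, with LTB4R2 upstream. Capitals mark the same motifs as above.
LTB4R2 promoter: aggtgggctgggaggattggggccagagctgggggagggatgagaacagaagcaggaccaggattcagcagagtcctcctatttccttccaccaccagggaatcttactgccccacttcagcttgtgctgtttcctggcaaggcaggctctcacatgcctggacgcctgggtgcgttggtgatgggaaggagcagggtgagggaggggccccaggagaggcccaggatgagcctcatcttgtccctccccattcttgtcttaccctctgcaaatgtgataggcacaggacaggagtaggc
LTB4R promoter: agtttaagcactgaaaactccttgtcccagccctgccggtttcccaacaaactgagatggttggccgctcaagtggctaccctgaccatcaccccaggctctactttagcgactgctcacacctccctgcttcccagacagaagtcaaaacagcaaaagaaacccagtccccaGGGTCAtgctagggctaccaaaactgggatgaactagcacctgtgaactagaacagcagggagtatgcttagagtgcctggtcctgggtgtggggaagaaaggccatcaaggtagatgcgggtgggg
The LTB4R window holds 1 GGGTCA, with its first base at -77, and the LTB4R2 window holds no match to any of the motifs. In the GENCODE v29 annotation, 355 bases of LTB4R2 exons are also LTB4R exons. That is 11% of the 3233 exon bases of LTB4R2 and 7.95% of the 4465 of LTB4R. LTB4R2 exons also share 1276 bases (39.5%) with CIDEB on the opposite strand and 304 bases (9.4%) with NOP9 on the same strand. The sources used here do not say whether counting used strand, so reads in these stretches cannot be assigned with certainty and the LTB4R2 level is uncertain.
CIDEB stood at 69.7 CPM with hairpin 2, 68.8 CPM with hairpin 1 and 64.1 CPM in the control in ATRA, against 48.5 CPM with hairpin 2, 47.3 CPM with hairpin 1 and 50.9 CPM in the control in DMSO. NOP9 stood between 23.7 and 28.4 CPM in ATRA and between 16.0 and 17.4 CPM in DMSO. Neither neighbour had a control library in DMSO that reached its ATRA range, as LTB4R2 did.

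PTGS1 codes for cyclooxygenase 1, the constitutive enzyme that forms prostaglandin H2. It stood at 280 CPM with hairpin 2, 268 CPM with hairpin 1 and 259 CPM in the control in ATRA. In DMSO it stood at 26.1 CPM with hairpin 2, 18.6 CPM with hairpin 1 and 16.8 CPM in the control. PTGS1 was higher in every ATRA library, by 10.8-fold with hairpin 2, 14.4-fold with hairpin 1 and 15.4-fold in the control. It rose by 3.72 ± 0.13 on the log2 scale (SE; adjusted p = 3.5e-08), the 221st largest change of 12301. PTGS2, the inducible cyclooxygenase, was in neither table. RefSeq lists 2 starts of PTGS1 that are 4769 bases apart, and both windows are shown because the gene was the member with the largest change after ALOX5AP (GRCh38.p14, plus strand, chr9:122370283-122370582 and chr9:122375052-122375351).
PTGS1 promoter, first start: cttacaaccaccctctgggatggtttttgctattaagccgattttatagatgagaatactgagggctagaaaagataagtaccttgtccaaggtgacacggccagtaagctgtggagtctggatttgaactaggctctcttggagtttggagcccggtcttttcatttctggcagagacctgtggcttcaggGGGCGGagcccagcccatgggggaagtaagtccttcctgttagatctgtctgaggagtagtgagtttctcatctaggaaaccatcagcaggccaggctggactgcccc
PTGS1 promoter, second start: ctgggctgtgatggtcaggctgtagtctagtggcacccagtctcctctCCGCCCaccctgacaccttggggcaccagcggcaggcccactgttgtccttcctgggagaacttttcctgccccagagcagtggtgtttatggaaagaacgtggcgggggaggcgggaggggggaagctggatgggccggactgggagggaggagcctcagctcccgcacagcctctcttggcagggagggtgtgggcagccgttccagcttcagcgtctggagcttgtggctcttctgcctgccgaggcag
Each window holds 1 GC box, at -58 in the first and, on the minus strand, at -202 in the second. Neither holds any of the other motifs. Of the 10 genes, 9 had a RefSeq promoter in the table used, in 10 windows, and ALOX5 had none. AGGTCA was in 1 of these windows, GGGTCA in 2, GAGGAA in 1, TTGCNNAA in 0 and GGGCGG in 5.

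PTGES, the microsomal synthase that makes prostaglandin E2 from prostaglandin H2, was listed in ATRA only. It stood at 107 CPM with hairpin 2, 138 CPM with hairpin 1 and 173 CPM in the control, from 4556, 6708 and 4874 counts. Its promoter carries 2 GC boxes close together (RefSeq, GRCh38.p14, chr9:129752993-129753292, minus strand), at -89 and -78, and is shown because this synthase also stood lower with both hairpins, as described below.
PTGES promoter: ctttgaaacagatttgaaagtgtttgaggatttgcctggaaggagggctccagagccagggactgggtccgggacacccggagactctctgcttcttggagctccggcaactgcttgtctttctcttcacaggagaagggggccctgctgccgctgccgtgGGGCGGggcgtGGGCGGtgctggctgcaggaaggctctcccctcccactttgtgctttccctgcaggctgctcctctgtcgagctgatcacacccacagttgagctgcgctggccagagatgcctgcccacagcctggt

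The prostaglandin E2 receptors EP2 (PTGER2) and EP4 (PTGER4) both raise cyclic AMP, and only PTGER2 was called higher in ATRA. PTGER2 stood at 10.0 CPM with hairpin 2, 6.40 CPM with hairpin 1 and 4.11 CPM in the control in ATRA. In DMSO it stood at 3.31 CPM with hairpin 2, 1.73 CPM with hairpin 1 and 0.844 CPM in the control. Each construct had more PTGER2 in ATRA, and the lowest ATRA library lay above the highest DMSO library. PTGER2 rose by 1.85 ± 0.29 on the log2 scale (SE; adjusted p = 4e-04). It rests on few reads, down to 26 counts in the control in DMSO.
PTGER4 stood at 37.8 CPM with hairpin 2, 29.8 CPM with hairpin 1 and 36.3 CPM in the control in ATRA, against 38.7 CPM with hairpin 2, 35.1 CPM with hairpin 1 and 31.2 CPM in the control in DMSO. The ranges overlapped, and the log2 fold change was -0.02 ± 0.11 (adjusted p = 0.91). The sign of so small a value moved with the scaling and the libraries used, between -0.14 with library totals and 0.11 without hairpin 1 in ATRA.

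Within each state the picture was close to that over the 3 constructs. In the knockdown libraries 7 of the 8 members were called higher in ATRA, where 34.6% of all genes were called higher and 35.4% lower. In the control libraries 6 of the 8 were called higher, against 29.3% of all genes called higher and 29.6% lower, with an error taken from the hairpins because the control has 1 library in each treatment. LTB4R2 was the member called in the knockdown libraries (0.86 ± 0.14, adjusted p = 9.1e-04) and not in the control libraries (0.00 ± 0.20, adjusted p = 0.99). The test of this difference itself is given below. PTGER4 was called in neither state, at -0.12 ± 0.11 in the knockdown libraries and 0.22 ± 0.17 in the control libraries. Without hairpin 2 in ATRA it stood at -0.31 in the knockdown libraries (adjusted p = 0.034).

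**Figure D2:**
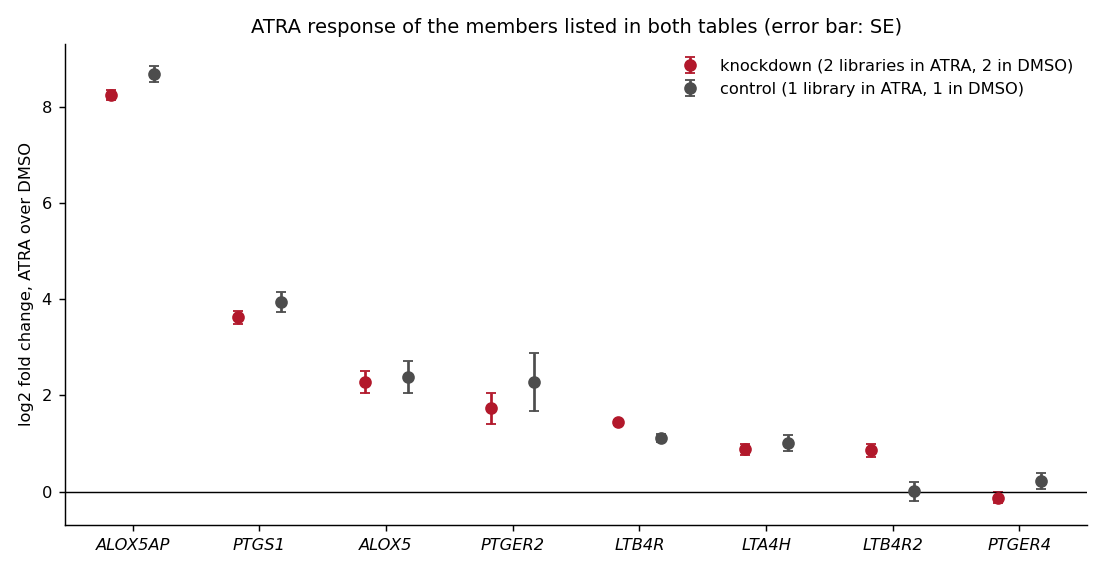
Log2 fold change of ATRA over DMSO for the 8 members listed in both tables, in knockdown libraries (red, left of each pair) and control libraries (grey, right); points are edgeR estimates and bars are standard errors. ALOX5AP stands at 8.25 with knockdown and 8.69 in the control, and LTB4R2 at 0.86 with knockdown and 0.00 in the control.

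Levels were set beside each other between genes after division by exon length (CPM per kilobase of merged GENCODE v29 exons). The exons of all annotated transcripts of a gene were merged, 7350 bases for LTA4H and 1896 for PTGES. This length can exceed that of the transcript expressed, which is not known here. The order of genes below therefore holds for this measure only. In ATRA, ALOX5AP was highest at 411 ± 32.4 CPM per kilobase (mean ± SD, n = 3 libraries), and next came PTGES at 73.3 ± 17.4, LTA4H at 50 ± 7.23 and PTGS1 at 46.4 ± 1.88. The ranges of LTA4H and PTGS1 overlapped, so their order is not resolved. Then came LTB4R at 23.1 ± 0.322, CYP4F3 at 16.6 ± 3.15, PTGER4 at 8.75 ± 1.08, ALOX5 at 6.01 ± 0.637, LTB4R2 at 3.53 ± 0.346 and PTGER2 at 2.77 ± 1.21, of which the last pair overlapped. In ATRA the level of ALOX5, per length, was thus far below that of its activating protein. In DMSO the highest levels per length were those of LTA4H at 26.4 ± 0.433, LTB4R at 9.19 ± 1.14, PTGER4 at 8.82 ± 0.947 and PTGS1 at 3.54 ± 0.85. LTB4R and PTGER4 overlapped there, as did PTGS1 and LTB4R2. LTB4R2 followed at 2.48 ± 0.911, ALOX5AP at 1.23 ± 0.191, ALOX5 at 1.22 ± 0.323 and PTGER2 at 0.792 ± 0.504. ALOX5AP, ALOX5 and PTGER2 overlapped, so ALOX5AP and ALOX5 stood side by side per length in DMSO.

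The comparison of knockdown with control asked whether SMARCD2 hairpins changed the pathway in each treatment. No member passed the test in either one. In DMSO 0 of 12301 genes were called (0%) by edgeR, with 868 at an unadjusted p under 0.05, and DESeq2 called 36 and limma-voom 0. In ATRA 1 gene, ENO2, was called, lower with knockdown (0.00813% of 12301), with 1329 at an unadjusted p under 0.05. DESeq2 called 50 in ATRA and limma-voom 1. ENO2, an enolase, is named because it was the only call. CYP4F3 and PTGES were tested in the 3 ATRA libraries alone, where 1 of 12837 genes was called (0.00779%). The spread between the 2 hairpins sets the error of these tests.

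PTGER2, the EP2 receptor gene, stood above the control with both hairpins in both treatments. In ATRA its level was 200% of the control on average over the hairpins, with a log2 fold change of 1.00 ± 0.42 (SE, 2 knockdown libraries against 1 control; adjusted p = 0.46). In DMSO it was 298% of the control, with 1.55 ± 0.56 (adjusted p = 0.68). Among the 12301 genes the DMSO value was the 23rd largest in size, a rank that does not weigh the standard error. The control in DMSO held 26 counts of PTGER2. Of the eosinophil, basophil and mast cell markers, 3 of 7 listed in ATRA (PRG2, CLC and TPSAB1) and 3 of 6 in DMSO (PRG2, TPSAB1 and HDC) had the same order of libraries as PTGER2. The others did not, and EPX stood at 90.5 CPM with hairpin 2, 69.1 CPM with hairpin 1 and 111 CPM in the control in DMSO. PRG2, which makes up most of the sum, stood at 901 CPM with hairpin 2, 581 CPM with hairpin 1 and 551 CPM in the control in ATRA. The DMSO libraries had 2172 CPM of it with hairpin 2, 1505 CPM with hairpin 1 and 1307 CPM in the control. The part of such cells in the PTGER2 values was not tested. Markers of other lists had this order too, so it was not particular to these cells. Among promyelocyte markers, MPO, PRTN3, CTSG and AZU1 had it in ATRA, and CD33 and CSF3R did not. In DMSO PRTN3 and AZU1 had it, and MPO, ELANE, CTSG, CD33 and CSF3R did not. NCAM1, a lymphoid marker, had it in both treatments. The share of all genes with this order was not counted. For PTGER2 in DMSO the value was larger without hairpin 1 in DMSO (1.98) than without hairpin 2 in DMSO (1.04). In ATRA it was 1.29 without hairpin 1 and 0.63 without hairpin 2. With the hairpin as a block, PTGER2 was called in both treatments, at 0.96 (ATRA, adjusted p = 0.022) and 1.51 (DMSO, adjusted p = 0.028). That fit leaves the spread between constructs out of its error, so its p-values can understate it. The authors' deposited table lists PTGER2 at a shrunken log2 fold change of 0.404 in ATRA with an adjusted p of 0.016. In DMSO it lists 0.204 with an adjusted p of 0.14. That test may have treated each run as a sample.

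PTGES stood at 70.7% of the control over the hairpins in ATRA, and both hairpins were below it. The log2 fold change was -0.50 ± 0.13 (SE, 2 against 1), with an unadjusted p of 0.0061 and an adjusted p of 0.31. It stood at -0.70 without hairpin 1 and at -0.33 without hairpin 2. The sequencing runs gave the same direction, at -0.48 in run 1 alone (adjusted p = 0.23) and -0.46 in run 2 alone (adjusted p = 3.4e-06). Run 1 held between 53.1% and 54.6% of the control libraries but between 70.6% and 80.7% of the knockdown libraries, so the mix of runs differed between the groups. The authors' deposited table lists PTGES in ATRA at a shrunken log2 fold change of -0.367 with an adjusted p of 0.0065, and that test may have treated each run as a sample.

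The leukotriene B4 receptors were lower with both hairpins in DMSO and near the control in ATRA. LTB4R2 stood at 55.5% of the control over the hairpins in DMSO, with a log2 fold change of -0.85 ± 0.17 (SE, 2 against 1; unadjusted p = 0.0014, adjusted p = 0.39). With the hairpin as a block it was called at -0.85 (adjusted p = 0.016), under the limit named for PTGER2. In run 1 alone it stood at -0.999 and in run 2 alone at -0.78. In DMSO, run 1 gave 7.31 CPM of the run with hairpin 2, 6.52 CPM with hairpin 1 and 13.9 CPM in the control, and run 2 gave 6.18, 4.92 and 9.71 CPM in the same order. The authors' deposited table lists LTB4R2 in DMSO at a shrunken log2 fold change of -0.414 with an adjusted p of 0.0023. The limit named for the authors' test of PTGES applies here too. CIDEB, on the opposite strand, had -0.09 ± 0.07 (adjusted p = 0.82) and NOP9 -0.07 ± 0.11 (adjusted p = 0.92) in this comparison.
LTB4R stood at 81.2% of the control over the hairpins in DMSO, at -0.30 ± 0.07 on the log2 scale (unadjusted p = 0.0025, adjusted p = 0.45). In ATRA the values were 0.03 ± 0.06 for LTB4R and 0.00 ± 0.18 for LTB4R2. Counts of both receptors summed, an alternative added after the data were seen, gave 0.03 for ATRA (adjusted p = 0.89) and -0.39 for DMSO (adjusted p = 0.29).

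The genes of leukotriene B4 synthesis stayed close to the control. ALOX5 had log2 fold changes of 0.01 ± 0.25 in ATRA and 0.11 ± 0.32 in DMSO, and in both treatments hairpin 2 lay above and hairpin 1 below the control. ALOX5AP had -0.15 ± 0.09 in ATRA, where both hairpins were below the control (adjusted p = 0.57), and 0.29 ± 0.22 in DMSO, where both were above it (adjusted p = 0.81). LTA4H had -0.13 ± 0.14 in ATRA and -0.01 ± 0.14 in DMSO. CYP4F3 had -0.06 ± 0.19 in ATRA, with hairpin 1 above and hairpin 2 below the control (adjusted p = 0.93). PTGS1 had 0.08 ± 0.15 in ATRA and 0.40 ± 0.19 in DMSO (adjusted p = 0.72), where it stood at 133% of the control. Both hairpins were above the control for PTGS1 in each treatment. PTGER4 had -0.11 ± 0.14 in ATRA and 0.24 ± 0.15 in DMSO, where both hairpins were above the control. Both hairpins on the same side of 1 control library is a description only, as the share of all genes with it was not counted. A missed threshold with 1 control library does not show that these genes were equal.

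**Figure D3:**
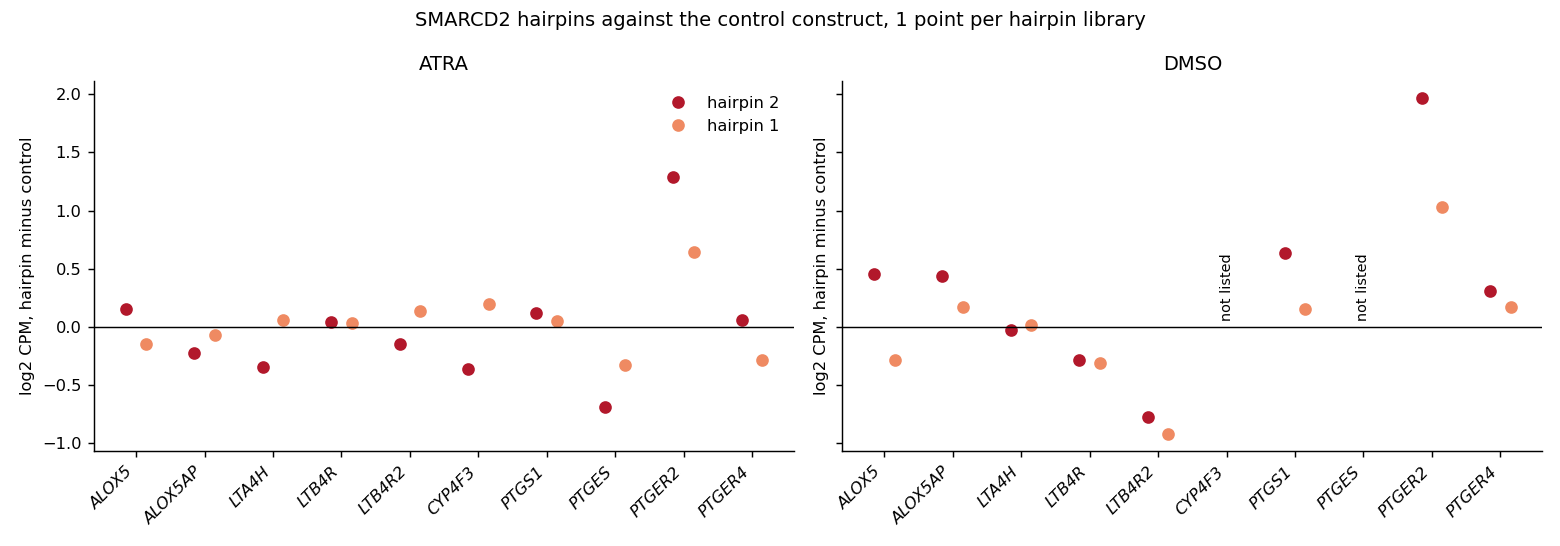
Log2 CPM of each hairpin library minus that of the control library in ATRA (left) and DMSO (right), with 1 point for hairpin 2 (dark red) and 1 for hairpin 1 (orange). PTGER2 and PTGS1 lie above 0 with both hairpins in both treatments. In ATRA, PTGES and ALOX5AP lie below 0 with both and LTB4R above 0 with both. In DMSO, LTB4R2 and LTB4R lie below 0 with both, and ALOX5AP and PTGER4 above 0 with both. None of these passed the test, and the share of all genes with both hairpins on the same side was not counted.

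The test of the difference in ATRA response, knockdown against control, called no member. Over all genes it called 0 higher and 6 lower (0.0488% of 12301), with 979 at an unadjusted p under 0.05, and DESeq2 called 48 and limma-voom 2. LTB4R2 had a difference of 0.85 ± 0.25 on the log2 scale (SE; unadjusted p = 0.0096, adjusted p = 0.49) and LTB4R one of 0.34 ± 0.09 (unadjusted p = 0.008, adjusted p = 0.47). Both differences came with DMSO levels that were lower in the knockdown libraries and ATRA levels near the control. With the receptors summed the difference was 0.42 (adjusted p = 0.35).
ALOX5AP had a difference of -0.44 ± 0.24 (adjusted p = 0.67), that is a smaller ratio of ATRA to DMSO with both hairpins than in the control. PTGER2 had -0.55 ± 0.71 (adjusted p = 0.87), PTGER4 -0.35 ± 0.20 (adjusted p = 0.69) and PTGS1 -0.32 ± 0.24 (adjusted p = 0.76). ALOX5 had -0.11 ± 0.41 and LTA4H -0.13 ± 0.20. These values moved when a single knockdown library was left out. PTGER2 then stood between -0.99 (without hairpin 1 in DMSO) and -0.04 (without hairpin 2 in DMSO). PTGER4 stood between -0.54 (without hairpin 2 in ATRA) and -0.18 (without hairpin 1 in ATRA). PTGS1 stood between -0.57 without hairpin 1 and -0.08 without hairpin 2 in DMSO, ALOX5AP between -0.60 and -0.33 likewise, and ALOX5 between -0.47 and 0.28 likewise. LTA4H stood between -0.34 without hairpin 1 and 0.05 without hairpin 2 in ATRA.

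The hairpins differed from each other in 2 of the 8 members, both higher with hairpin 2 over the 4 knockdown libraries. Over all genes 1.3% were called higher with hairpin 2 and 0.732% lower, of 12300 tested. PTGER2 was higher with hairpin 2 by 0.77 ± 0.16 on the log2 scale (SE, 2 libraries against 2; adjusted p = 0.0082), and ALOX5 by 0.48 ± 0.12 (adjusted p = 0.032). The hairpin 2 libraries also had the lower SMARCD2 level in each treatment. DESeq2 called neither gene (adjusted p = 0.34 for PTGER2 and 0.55 for ALOX5). ALOX5 also missed the threshold in run 1 alone (adjusted p = 0.052) and in run 2 alone (adjusted p = 0.20). LTA4H had -0.22 ± 0.07 (adjusted p = 0.084), PTGS1 0.24 ± 0.07 (adjusted p = 0.098, and 0.03 with median-of-ratios scaling) and PTGER4 0.24 ± 0.07 (adjusted p = 0.1). ALOX5AP, LTB4R and LTB4R2 had values between -0.08 and 0.02. Hairpin and transduced culture cannot be told apart.

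Around the 10 genes, a list of 52 other genes of the same routes was read. Of these, 35 were in either table, 27 in both, 5 in ATRA only and 3 in DMSO only. Under ATRA 12 of the 27 were higher and 8 lower, with 7 at least 2-fold higher, and their median log2 fold change was 0.16. These counts stand beside 36.2% of genes called higher, 37.8% called lower and 11.9% called at least 2-fold higher over all genes tested. The same shares stand beside the counts by role below, which rest on few genes and are a description only.
Of 3 lipoxygenase-related genes, 2 rose and 0 fell. COTL1, a coactosin-like protein that binds 5-lipoxygenase, stood at 665 ± 10.4 CPM in ATRA and 62.4 ± 6.37 CPM in DMSO (mean ± SD, n = 3 each), a log2 fold change of 3.41 ± 0.08 (adjusted p = 4.9e-09). ALOX12, the platelet lipoxygenase, rose by 0.93 ± 0.12.
Of 6 genes of arachidonate release, 2 rose and 2 fell. PLA2G4A, the cytosolic phospholipase A2 that frees arachidonic acid, rose by 1.56 ± 0.20, and PLA2G4C by 1.40 ± 0.50. Both were below 1 CPM in every DMSO library, and PLA2G4C with hairpin 2 stood at 0.515 CPM in ATRA, against 0.570 CPM in DMSO. PLA2G4B and PLA2G6 fell by less, at -0.40 ± 0.06 and -0.27 ± 0.08.
Of 6 genes of cysteinyl leukotriene synthesis, 3 rose and 2 fell. LTC4S, the leukotriene C4 synthase, fell by 1.18 ± 0.23 in ATRA, where it stood at 2.88 ± 0.812 CPM, against 6.66 ± 1.64 CPM in DMSO (mean ± SD, n = 3 each). MGST3, a related microsomal glutathione transferase, fell by 1.68 ± 0.09, while GGT5, which cleaves leukotriene C4, rose by 1.28 ± 0.11. CYSLTR1, the cysteinyl leukotriene receptor, rose by 1.23 ± 0.15, and it was the 1 receptor of its list that was in both tables. FPR2, a receptor for lipoxin and formyl peptides, was listed in ATRA only, at 22.5 ± 1.94 CPM.
Of 6 prostanoid synthase genes, 3 rose and 1 fell. TBXAS1, the thromboxane synthase, rose by 1.20 ± 0.06, to 281 ± 7.65 CPM in ATRA, against 123 ± 10.2 CPM in DMSO. AKR1C3, which makes prostaglandin F2, rose by 2.16 ± 0.28, though its reads can be shared with near-identical AKR1C genes, and FAM213B, a prostaglandin F synthase, fell by 2.47 ± 0.13. The other synthase gene called higher was PTGES3, at 0.18 ± 0.05, close in size to the shift of scale given above. Of 2 transporter genes ABCC4, which exports prostaglandins, fell by 1.17 ± 0.12, and ABCC1, which exports leukotriene C4, rose by 0.67 ± 0.06. Of 2 genes of inactivation, PTGR1 and PTGR2, both fell, at -0.82 ± 0.18 and -0.34 ± 0.06. PTGDR2, a prostaglandin D2 receptor, had 0.01 ± 0.23 and was not called.

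**Figure D4:**
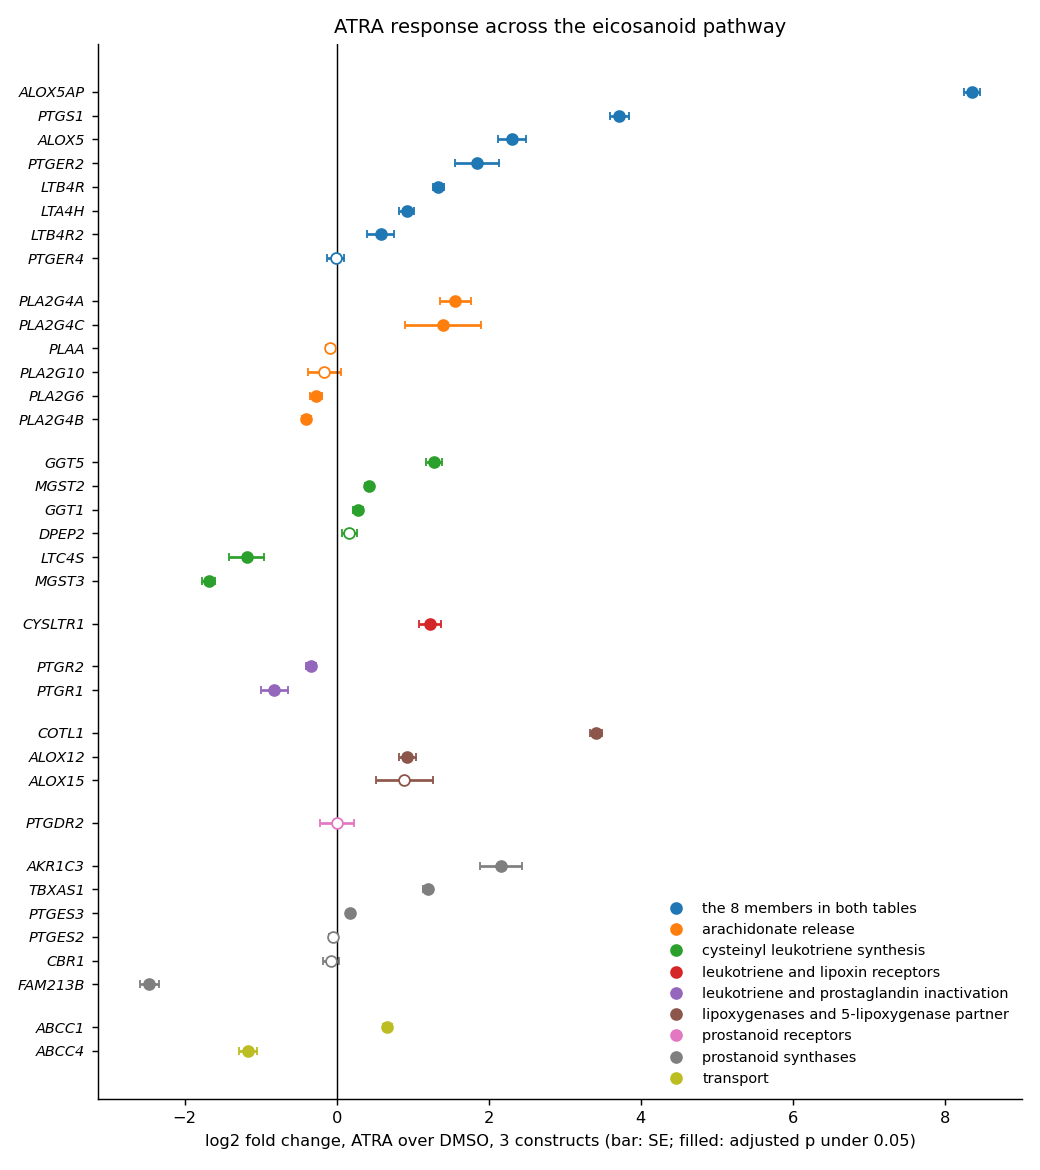
Log2 fold change of ATRA over DMSO over the 3 constructs for the 8 members listed in both tables (top, blue) and the 27 other genes of the routes, grouped by role; points are edgeR estimates, bars are standard errors, and filled points have an adjusted p under 0.05. The members run from -0.02 for PTGER4 to 8.36 for ALOX5AP, and the other genes from -2.47 for FAM213B to 3.41 for COTL1.

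The strongest of the other pathway genes responded in both states. By p-value these were COTL1 (3.46 ± 0.09), FAM213B (-2.34 ± 0.13) and MGST3 (-1.64 ± 0.10) in the knockdown libraries, and COTL1 (3.33 ± 0.13), GGT5 (1.66 ± 0.12) and FAM213B (-2.77 ± 0.20) in the control libraries. Knockdown against control called none of the 27 in either treatment. The smallest p-values were those of PTGR1 (-0.53 ± 0.22, adjusted p = 0.44), PLAA (0.15 ± 0.07, adjusted p = 0.5) and MGST2 (0.13 ± 0.06, adjusted p = 0.51) in ATRA, and of GGT5 (0.42 ± 0.10, adjusted p = 0.5), PTGES3 (0.16 ± 0.06, adjusted p = 0.71) and PTGES2 (-0.17 ± 0.08, adjusted p = 0.72) in DMSO. The difference in ATRA response was smallest in p for GGT5 (-0.55 ± 0.14, adjusted p = 0.42), PTGR1 (-0.75 ± 0.30, adjusted p = 0.6) and FAM213B (0.44 ± 0.24, adjusted p = 0.68). Between the hairpins CYSLTR1 alone of the 27 was called, higher with hairpin 2 by 0.42 ± 0.08 (adjusted p = 0.0059), while LTC4S had 0.59 ± 0.17 (adjusted p = 0.081) and ABCC4 0.30 ± 0.10 (adjusted p = 0.18).

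For 4 members the 3 genes with the most similar pattern over the 6 libraries were found by the root mean square distance of centred log2 CPM among 12264 genes. For ALOX5 these were IL10RA (distance 0.12), REL (0.12) and TRIM46 (0.124). For PTGS1 they were IFIT1 (0.0669), SAMD9L (0.073) and TRIM22 (0.0859). For LTB4R they were CMYA5 (0.037), DENND4B (0.0543) and GDPGP1 (0.0558), and for PTGER4 they were SMCO2 (0.0342), F12 (0.0542) and MYO3B (0.0546). The 6 libraries share their constructs and 2 treatments, so such likeness rests on few independent points, and it is given as a description.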

How the data were processed

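Gene counts from RNA-seq of 6 NB4 libraries were analysed. Per the labels' protocols, RNA was purified on GeneJET columns and sequenced with NEBNext Ultra RNA library kits. The tools named, per the submitters' processing notes, are bcl2fastq, STAR, Picard 2.5.0 and DESeq2, with the build GRCh37.p13. Neither their roles nor the use of strand in counting is given. For each treatment the authors deposited 1 table (12838 genes in ATRA, 12752 in DMSO, 12301 shared) with raw counts in 2 columns per library, taken as sequencing runs and summed here. The authors' log2 fold change and adjusted p-value per gene, in the same deposited tables, are quoted by name only. Another 12 columns hold normalized copies and were left aside.

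Counts were filtered with filterByExpr, scaled with TMM on full table totals and tested with edgeR 4.0.16 (R 4.3.3, limma 3.58.1) by the quasi-likelihood test, with Benjamini-Hochberg adjustment over all genes and a threshold of 0.05. The model for ATRA against DMSO over the 3 constructs held treatment and knockdown state (3 residual degrees of freedom). The other comparisons came from a fit of 4 groups (2 residual degrees of freedom, from the hairpins, so a single control library is taken to vary as they do). Genes in 1 table were tested in its 3 libraries (1 residual degree of freedom). Hairpin 2 was set against hairpin 1 in a model of the 4 knockdown libraries that also held treatment (1 residual degree of freedom). The standard error is the absolute log2 fold change over the square root of F. CPM uses TMM-scaled totals. Simulated counts were used to check that the median log2 fold change was recovered. This was done for ATRA against DMSO over the 3 constructs and for knockdown against control in DMSO only. The simulation gave every gene the same spread, so no error rate of the tests is drawn from it. Alternatives were DESeq2 1.42.0, limma-voom, other scalings, no filter, single runs, libraries left out and a hairpin block. Promoters came from RefSeq and exon lengths and overlaps from GENCODE v29, both on GRCh38, and no coordinate was set against the count tables, which use another build. Tables and figures were made with Python 3.11.15, pandas 2.3.3 and matplotlib 3.10.9.

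The same hairpins appear in both treatments. Across 9467 genes of at least 10 CPM, deviations in ATRA correlated with those in DMSO at r = 0.21 for hairpin 2, 0.19 for hairpin 1 and 0.08 for the control. The labels do not say that a hairpin's libraries share transduced cells. Blocked values are therefore printed beside a result only where they change its call.

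The members and lists were chosen with earlier results of these data known. Named genes are the 10 members, the 12 other pathway genes with the largest called ATRA change, the 3 with the smallest p in each other comparison, and the 3 most alike patterns for 4 members. ENO2, CIDEB, NOP9 and the other genes of the short role lists were named after their values were seen.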

Additional observations from a re-analysis of the deposited data

How the results depend on the processing

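Over the alternatives run, 656 of 706 values of a member under a setting were counted as unchanged. A value with a test was unchanged if it kept direction and side of the threshold. A value with no test was unchanged if it lay within the SD between the hairpins. Its sign was not read unless the value of the full fit was called. Another 10 values gained a call, 7 lost one and 3 with no test moved further than that SD. The other 30, all with a test, changed sign. None of them was called in either fit, and all were at or below 0.28 in size on the log2 scale. All calls of ALOX5, ALOX5AP, LTA4H, LTB4R, PTGS1 and PTGER2 in ATRA against DMSO, over the 3 constructs and in each state, held under every alternative run. In the knockdown libraries the members called lower in ATRA ranged from 0 to 1 when a library was left out, the 1 being PTGER4 without hairpin 2 in ATRA. For knockdown against control, the replicate block called 1 member higher in ATRA, and 1 higher and 1 lower in DMSO, and over all genes it called 348 in ATRA and 116 in DMSO, and 129 for the difference in response. Its error leaves out the spread between constructs, and it changed no other call of a member. Run 2 alone called 1 member lower in ATRA, PTGES, in the fit of the 3 ATRA libraries. The calls over all genes in that fit of run 2 were not counted. In the fit of 4 groups, run 2 alone called 7 of all genes for knockdown against control in ATRA. For hairpin 2 against hairpin 1, members called higher were 0 with DESeq2, 1 in run 1 alone, 1 in run 2 alone and 3 with median-of-ratios scaling, where PTGS1 had 0.24 (adjusted p = 0.03). In that comparison 1 member, LTA4H, was called lower with limma-voom, with median-of-ratios scaling, in run 1 alone and in run 2 alone, the cause of which was not tested. All genes called there numbered 250, against 46 with DESeq2, 441 with limma-voom and 382 with median-of-ratios scaling. They numbered 246 in run 1 alone and 192 in run 2 alone. Without hairpin 1 in DMSO, 21 genes were called for knockdown against control in DMSO, where the full fit called 0. Without any 1 knockdown library, the difference in response had 1 to 2 calls, against 6. PTGES left without a hairpin in ATRA has no residual degree of freedom and is given as a value with no test. Depth limits PTGER2 most, with 26 counts in the control in DMSO. The log2 values with a test that changed sign are given next. Where a library was left out, the range over those fits is given, and it also holds values that kept their sign. PTGER4 in ATRA against DMSO over the 3 constructs had 0.0022 with DESeq2, 0.088 in run 2 alone and between -0.12 and 0.11 with a library left out, and in the knockdown libraries between -0.31 and 0.039. LTB4R2 in the control libraries had -0.14 with library totals and -0.068 in run 1 alone. For knockdown against control in ATRA, LTB4R2 had -0.0014 with DESeq2, -0.00074 with median-of-ratios scaling, -0.053 in run 1 alone, -0.076 in run 2 alone, -5.8e-05 with the replicate block and between -0.15 and 0.13 with a library left out. There ALOX5 had -0.0079 with limma-voom, -0.013 in run 1 alone and between -0.16 and 0.15 with a library left out, LTA4H between -0.35 and 0.048, and PTGER4 between -0.29 and 0.059. For knockdown against control in DMSO, LTA4H had 0.00019 with DESeq2, 0.000302 with median-of-ratios scaling, 0.044 in run 1 alone and between -0.016 and 0.024 with a library left out, and ALOX5 between -0.28 and 0.47. For the difference in ATRA response, ALOX5 lay between -0.47 and 0.28 and LTA4H between -0.34 and 0.046 with a library left out. ALOX5AP between the hairpins had 0.023 with DESeq2. Some values with no test also changed sign. CYP4F3 for knockdown against control in ATRA had 0.19 with hairpin 1 alone. Between the hairpins in the DMSO libraries only, ALOX5AP had 0.27 and LTB4R2 0.15. Why these values moved was not tested.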
